A study of Homo sapiens with 21 samples.

Results

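The EGF receptor family was examined in BT-549 cells through 9 genes, comprising the 3 receptor genes EGFR, ERBB2 and ERBB3 and the 6 ligand genes AREG, EREG, HBEGF, TGFA, BTC and NRG1. They were taken by symbol from a table of raw read counts for 42339 gene identifiers, and all 9 of 9 were found. BT-549 is an established triple-negative breast cancer (TNBC) cell line, and RNA from 21 cultures was sequenced, with 3 cultures in each of 7 groups. The 2D cells grew attached in RPMI1640 with serum and insulin. The 3D cells were S6 mammospheres, grown from the same line in ultra-low attachment plates in MammoCult medium for 6 serial passages, and a further group of such 3D cells received 0.75 μmol/L GO-203, a peptide inhibitor of the MUC1-C oncoprotein. The tet-MUC1shRNA mammospheres (passage 6) and tet-MYCshRNA mammospheres (passage 8) carried a doxycycline (DOX)-inducible shRNA and received 0.1% DMSO as vehicle or 500 ng/ml DOX to silence MUC1 or MYC. Attachment, medium and the selection of large mammospheres over serial passages changed together between 2D and 3D cells and cannot be told apart. The libraries analysed here include 1 shRNA per target and no DOX-treated control-shRNA cultures. The replicates are cultures of 1 cell line, so p-values measure the spread between these cultures.

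Library totals ranged from 38026597 to 99751717 counts, and counting error was largest for BTC and TGFA in all groups, for AREG and EREG in 2D cells, and for ERBB3 and HBEGF where their counts were low. MUC1 fell in the tet-MUC1shRNA line with DOX (log2 fold change -2.06, SE 0.07) and MYC fell in the tet-MYCshRNA line with DOX (-0.62, SE 0.08). MYC rose by 0.25 on MUC1 silencing, and MUC1 rose by 1.25 on MYC silencing. The sample labels give an epithelial breast origin, but of 7 epithelial markers KRT7 was at 1 CPM or more in every group, CDH1 in 2D cells, CLDN4 in vehicle-treated tet-MUC1shRNA and MYC-silenced cells and KRT8 in MUC1-silenced cells, and the 7 summed to 7.14 to 91.7 CPM per library, whereas EPCAM, KRT18 and KRT19 had a mean below 1 CPM (read counts scaled by library size and TMM factors) in all 7 groups, while 5 of 5 mesenchymal markers were at 1 CPM or more in each group. The hormone receptor genes ESR1 and PGR were below 1 CPM in all groups. In these bulk cultures, fewer cells that express a gene and less RNA per cell cannot be told apart.

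EGFR, ERBB2 and ERBB3 encode tyrosine kinase receptors at the cell surface that signal as pairs. EGFR binds amphiregulin (AREG), epiregulin (EREG), heparin-binding EGF-like growth factor (HBEGF), TGF-alpha (TGFA) and betacellulin (BTC). ERBB3 binds neuregulin 1 (NRG1) and has a weak kinase of its own, whereas ERBB2 has no known ligand and serves as the preferred partner of the others. The ligands are made as membrane-anchored precursors that are mostly released by ADAM proteases, and the paired receptors then act through adaptors on the RAS-ERK and PI3K pathways. EGFR is commonly expressed in TNBC, a class of breast cancers that by definition lacks ERBB2 amplification.

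On GRCh38 with GENCODE 44 annotation, EGFR lies on the plus strand of chromosome 7 (55019017 to 55211628), ERBB2 on the plus strand of chromosome 17 (39687914 to 39730426) and ERBB3 on the plus strand of chromosome 12 (56076799 to 56103505). AREG (74445136 to 74455005) and EREG (74365145 to 74388749) are plus-strand neighbours on chromosome 4, their starts 79991 bases apart. BTC (74744759 to 74794523, minus strand) belongs to the same cluster. HBEGF is on the minus strand of chromosome 5 (140332843 to 140346603), and TGFA is on the minus strand of chromosome 2 (70447284 to 70554193). In ERBB2, 6.93% of exon bases lie opposite exons of MIEN1 and PGAP3, and in EGFR 1.17% lie opposite EGFR-AS1. The strand setting of the read counting was not given in the sources used here.

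The promoters of the 3 ligand genes that differed most between 2D and 3D cells are shown, since AREG and EREG lie side by side and yet followed different patterns across the mammosphere groups. Each window runs from 250 bases before to 50 bases after the RefSeq start (GRCh38.p14), 5′ to 3′ on the gene's strand, and capitals mark a motif found on either strand. The AREG window is chr4:74444886-74445185 (plus strand), the EREG window chr4:74364895-74365194 (plus strand) and the HBEGF window chr5:140346554-140346853 (minus strand).
AREG: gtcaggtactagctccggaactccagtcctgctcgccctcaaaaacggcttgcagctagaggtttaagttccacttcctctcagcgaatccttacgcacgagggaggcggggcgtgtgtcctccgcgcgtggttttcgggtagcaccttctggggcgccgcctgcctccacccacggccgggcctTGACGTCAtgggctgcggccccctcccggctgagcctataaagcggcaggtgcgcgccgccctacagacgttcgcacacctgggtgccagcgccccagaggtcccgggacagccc
EREG: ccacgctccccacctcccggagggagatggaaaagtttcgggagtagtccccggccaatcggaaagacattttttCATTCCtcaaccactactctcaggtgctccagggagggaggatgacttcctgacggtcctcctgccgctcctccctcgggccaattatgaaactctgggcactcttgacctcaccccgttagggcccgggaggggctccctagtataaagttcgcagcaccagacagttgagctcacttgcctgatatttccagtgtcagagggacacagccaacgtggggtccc
HBEGF: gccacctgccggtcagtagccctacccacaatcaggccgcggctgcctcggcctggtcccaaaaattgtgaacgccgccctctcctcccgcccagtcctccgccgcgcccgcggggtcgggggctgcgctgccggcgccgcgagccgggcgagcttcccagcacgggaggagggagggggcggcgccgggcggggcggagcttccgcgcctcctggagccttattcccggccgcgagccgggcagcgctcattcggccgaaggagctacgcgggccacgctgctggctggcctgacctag
The motifs searched, on both strands, were the E-box CACGTG that MYC can bind, the cyclic AMP response element TGACGTCA, the AP-1 site TGANTCA and the TEAD site GGAATG. The AREG window held the cyclic AMP response element 65 bases before the start, a motif present in 1.84% of 34796 promoter windows of this length. The EREG window held a TEAD match 175 bases before the start, on the opposite strand, as did 14.0% of all windows. The HBEGF window held none of the 4. In all, 9 windows of 7 of the 9 members were searched, since NRG1 was left out of the search and no window was found for ERBB3. Of these windows, 2 held an AP-1 match, against 7.73% of all windows, and 0 held the E-box, which 7.20% of all windows contained. These matches describe the letters only.

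EGFR was the most abundant receptor in every group. Per length of exon sequence (RPKM, which is CPM divided by exon length in kilobases), it made up 91.5% of the summed level of the 3 receptors in 2D cells and 92.0% to 96.2% in the mammosphere groups. EGFR read 677, 583 and 599 CPM in 2D cells and 846, 899 and 806 CPM in 3D cells. With GO-203 the 3D cells read 875, 848 and 925 CPM. All 3D cultures, with or without GO-203, were above the 2D cultures. The tet-MUC1shRNA mammospheres were lowest, with 506, 448 and 462 CPM under vehicle and 543, 539 and 534 CPM under DOX. The tet-MYCshRNA mammospheres held 635, 630 and 644 CPM under vehicle and 902, 1003 and 1004 CPM under DOX. The vehicle-treated mammospheres of the tet lines therefore did not share the high EGFR level of the untransduced 3D cells: those of tet-MUC1shRNA were below every 2D culture and those of tet-MYCshRNA overlapped the 2D range.

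ERBB2 was far lower. It read 33.3, 37.7 and 37.4 CPM in 2D cells, 23.0, 22.0 and 22.6 CPM in 3D cells, and 22.2, 22.3 and 20.1 CPM with GO-203. In the tet-MUC1shRNA line it read 27.0, 23.0 and 25.3 CPM with vehicle and 19.9, 21.2 and 22.7 CPM with DOX, and in the tet-MYCshRNA line 22.8, 19.4 and 18.2 CPM with vehicle and 27.0, 42.3 and 38.8 CPM with DOX. The 2D and MYC-silenced groups had the highest means and overlapped each other, but the first MYC-silenced culture was well below the other two, within the range of the vehicle-treated tet-MUC1shRNA cultures. ERBB3, the neuregulin receptor, was low, with 24 to 105 counts per library and group means between 0.502 CPM (tet-MYCshRNA, vehicle) and 1.76 CPM (tet-MUC1shRNA, vehicle). Each neighbouring pair of groups in the order of ERBB3 levels overlapped. ERBB4, the remaining receptor of the family, had 2 to 16 counts per group of 3 libraries.

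Per length of exon sequence, the ligands changed places between groups. NRG1 was the leading ligand of 2D cells, with 73.98% ± 0.99 (SD, n = 3) of the summed ligand RPKM, followed by HBEGF with 25.9% ± 1.06 (SD, n = 3). In 3D cells AREG took 69.9% ± 2.06 (SD, n = 3), NRG1 15.3% and EREG 12.1%. With GO-203 the AREG share was 63.7% ± 1.82 (SD, n = 3). The tet lines differed from the untransduced 3D cells in which ligand led: EREG took 74.8% ± 2.14 (SD, n = 3) in vehicle-treated tet-MUC1shRNA mammospheres, and NRG1 (42.0%) and EREG (32.0%) led in vehicle-treated tet-MYCshRNA mammospheres. With DOX, the tet-MUC1shRNA line had 43.98% EREG, 33.2% NRG1 and 17.3% AREG, and the tet-MYCshRNA line had 36.7% NRG1 and 35.6% EREG. The summed ligand level was 25.8 ± 0.66 RPKM in MUC1-silenced and 8.14 ± 0.15 RPKM in MYC-silenced cultures (SD, n = 3), the highest and lowest of the 7 groups. These shares use the union of annotated exons as length, which is long for NRG1 (21372 bases) and short for AREG (1642 bases), and they would move with another choice of transcript. By mean CPM, without division by length, NRG1 led in 3D cells, at 68.5 against 24.1 for AREG and 14.5 for EREG. In vehicle-treated tet-MUC1shRNA mammospheres EREG stayed ahead, at 81.3 CPM against 63.4 CPM for NRG1. Which ligand led in 3D cells thus depends on the lengths used, and the order of the summed levels also rests on them.

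**Figure D1:**
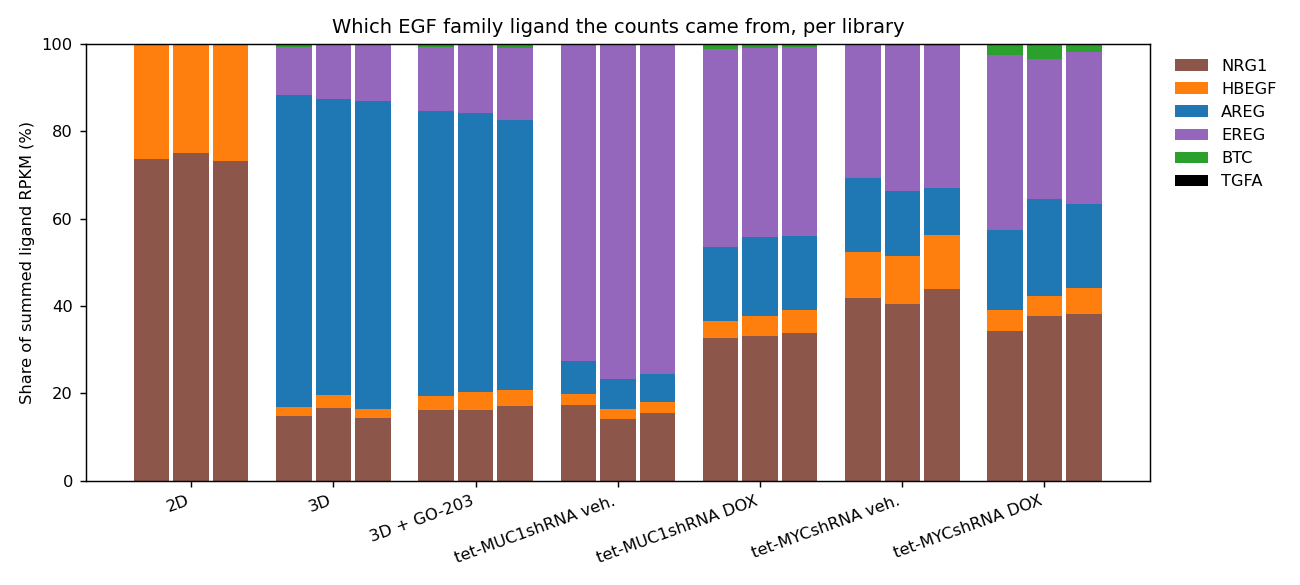
Share of each ligand gene in the summed RPKM of the 6 ligand genes, in percent, with 1 stacked bar per library and 3 libraries per group. NRG1 and HBEGF fill the bars of 2D cells, AREG leads in 3D cells with and without GO-203, and EREG leads in vehicle-treated tet-MUC1shRNA mammospheres at 74.8%. These leads are per length of exon sequence. By mean CPM, NRG1 is ahead of AREG in 3D cells with and without GO-203.

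By library, NRG1 read 308, 257 and 258 CPM in 2D cells and 66.1, 72.3 and 67.2 CPM in 3D cells, and GO-203-treated 3D cells read 55.6, 50.2 and 57.6 CPM. It stood at 65.2, 62.2 and 63.0 CPM in the tet-MUC1shRNA line with vehicle and at 185, 182 and 181 CPM with DOX. The tet-MYCshRNA line went the other way, from 124, 123 and 129 CPM with vehicle to 60.6, 64.3 and 66.4 CPM with DOX. The ranges did not overlap within any of these pairs. HBEGF, which like AREG binds EGFR, followed a similar order at lower levels. It read 15.4, 11.8 and 13.2 CPM in 2D cells, 1.18, 1.89 and 1.25 CPM in 3D cells and 1.52, 1.79 and 1.76 CPM with GO-203. The tet-MUC1shRNA line held 1.24, 1.35 and 1.39 CPM with vehicle and 3.01, 3.53 and 3.94 CPM with DOX, against 4.34, 4.75 and 5.13 CPM and 1.19, 1.08 and 1.45 CPM in the tet-MYCshRNA line. For HBEGF the 3D and GO-203 cultures overlapped, and the other pairs did not.

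AREG was all but absent from 2D cells, with counts of 0, 1 and 0. It read 24.4, 22.6 and 25.3 CPM in 3D cells and 17.3, 15.3 and 16.0 CPM with GO-203, with no overlap. The tet-MUC1shRNA line had 2.20, 2.29 and 1.99 CPM with vehicle and 7.31, 7.69 and 6.94 CPM with DOX, again with no overlap. The tet-MYCshRNA line had 3.89, 3.44 and 2.47 CPM with vehicle and 2.49, 2.93 and 2.58 CPM with DOX, and these overlapped. EREG had 0 counts in all 3 libraries of 2D cells. It read 13.1, 14.4 and 16.1 CPM in 3D cells and 13.6, 12.9 and 15.0 CPM with GO-203, which overlapped. Its highest level was in the tet-MUC1shRNA line, at 72.6, 89.4 and 81.9 CPM with vehicle and 68.5, 63.7 and 62.0 CPM with DOX. In the tet-MYCshRNA line it read 24.2, 26.9 and 25.5 CPM with vehicle and 19.0, 14.6 and 16.2 CPM with DOX. AREG was thus highest in untransduced 3D cells and EREG in the tet-MUC1shRNA line, although the genes lie side by side.

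BTC and TGFA were the scarce ligands. BTC had counts of 2, 2 and 0 in 2D cells, 18, 8 and 4 in 3D cells and 11, 4 and 20 with GO-203. In the tet-MUC1shRNA line its counts were 2, 4 and 8 with vehicle and 44, 44 and 22 with DOX, and in the tet-MYCshRNA line 2, 18 and 13 with vehicle and 28, 41 and 24 with DOX. Both DOX groups were above their vehicle groups in every culture. TGFA had no value in the table for 2D and 3D cells, which was read as 0 counts, and at most 6 counts in any library, and it passed the filter on low counts in none of the comparisons.

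**Figure D2:**
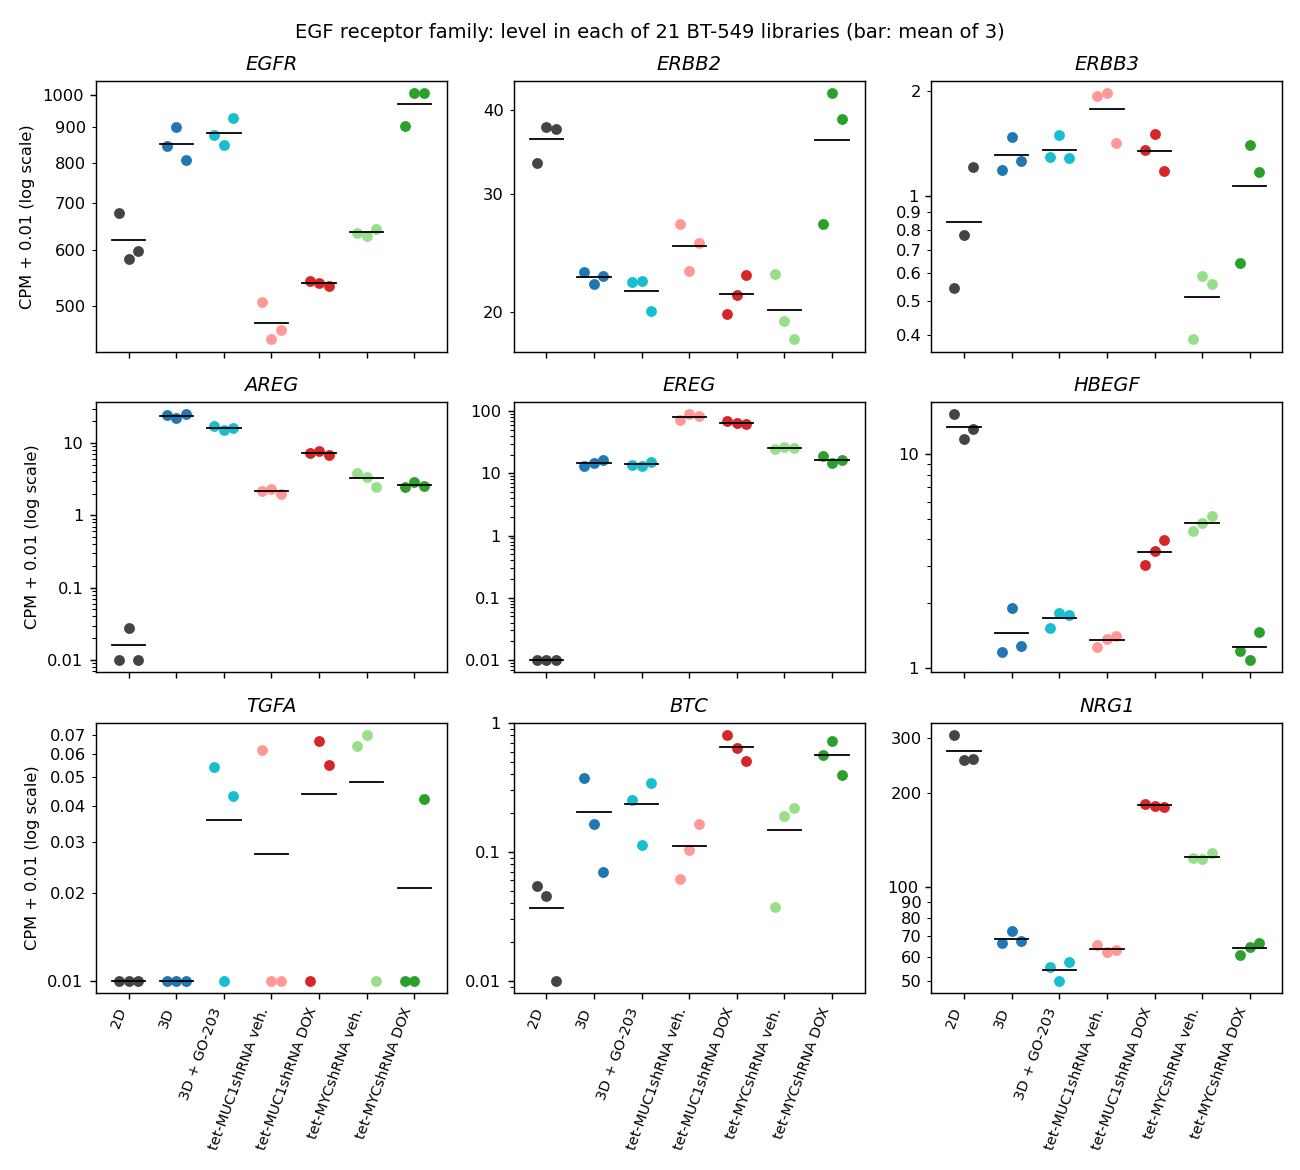
CPM plus 0.01 of the 9 members on a log axis with a scale of its own in each panel, with 1 point per library and a bar at the mean of the 3 libraries of each group. NRG1 and HBEGF are highest in 2D cells, AREG and EREG are near 0 counts there, and EGFR spans 448 to 1004 CPM.

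The first comparison asked how serially passaged mammospheres differ from attached cells. In 3D cells the ligand genes AREG and EREG rose from near 0, HBEGF and NRG1 fell, EGFR rose modestly and ERBB2 fell. Among the 7 members with enough counts to be tested, 7 passed an adjusted p below 0.1 in edgeR's quasi-likelihood test, where 63.7% of all 19190 genes tested did. AREG and EREG, with at most 1 count in any 2D library, were tested only because of their 3D counts and had to differ, so the counts of calls that include them are given as a description. In this comparison 4 rose (32.0% of all genes) and 3 fell (31.7% of all genes), and 4 of them also exceeded an absolute log2 fold change of 1.5 (16.2% of all genes). EREG was at least 772-fold higher in 3D cells, taking 3 counts over the group as the floor in 2D cells, and AREG was higher by a ratio of 3811, with a 95% counting interval of 684 to 150572 that rests on a single count. HBEGF fell by 3.18 (log2, SE 0.18, adjusted p = 1.6e-10) and NRG1 fell by 1.95 (SE 0.08, adjusted p = 2.2e-12). EGFR rose by 0.51 (SE 0.07, adjusted p = 4.7e-06) and ERBB2 fell by 0.63 (SE 0.07, adjusted p = 9.1e-07). Of the genes that overlap ERBB2 on the other strand, PGAP3 also fell, by 1.02 (SE 0.21), and MIEN1 had a log2 fold change of -0.08 (SE 0.12). Their part in the ERBB2 value was not tested. ERBB3 rose by 0.68 (SE 0.30, adjusted p = 0.061), a call lost without the first (0.47, adjusted p = 0.20) or second (0.62, 0.15) culture of 2D cells or the second culture of 3D cells (0.61, 0.14). The 7 epithelial markers summed to 8.75 to 10.9 CPM in 2D cells and 51.6 to 59.1 CPM in 3D cells, where only KRT7 was at 1 CPM or more. KRT7 rose by 2.93 (log2, SE 0.10) and KRT8, below 1 CPM in both groups, rose by 1.51 (SE 0.46). CDH1 fell to below 1 CPM in 3D cells, with a fitted value of -9.27 (SE 0.72), and CLDN4 did not pass. Of the mesenchymal markers FN1 was at 3.89 (SE 0.06), ZEB1 at 1.14 (SE 0.06), VIM at 0.12 (SE 0.05), CDH2 at -3.11 (SE 0.06) and SPARC at -3.97 (SE 0.07), and the part of these shifts in the member values was not tested.

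The changes in the ligands also appeared when vehicle-treated mammospheres of either tet line stood in for 3D cells, and the changes in the receptors did not all do so. Against 2D cells, HBEGF fell by 3.29 in the tet-MUC1shRNA line and by 1.48 in the tet-MYCshRNA line, and NRG1 fell by 2.07 and 1.11. EREG was at least 4290-fold and 1350-fold higher, and AREG was higher by ratios of 339 (interval 60.3 to 13431) and 525 (interval 93.9 to 20750). ERBB2 fell by 0.49 and by 0.82. EGFR, in contrast, fell by 0.35 in the tet-MUC1shRNA line (adjusted p = 1.6e-04) and had a log2 fold change of 0.06 in the tet-MYCshRNA line (adjusted p = 0.41). ERBB3 rose by 1.10 in the former (adjusted p = 0.0026) and fell by 0.71 in the latter (adjusted p = 0.084). These lines share the 2D libraries with the first comparison. The direction of the EGFR and ERBB3 changes in mammospheres depended on which mammospheres were compared.

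**Figure D3:**
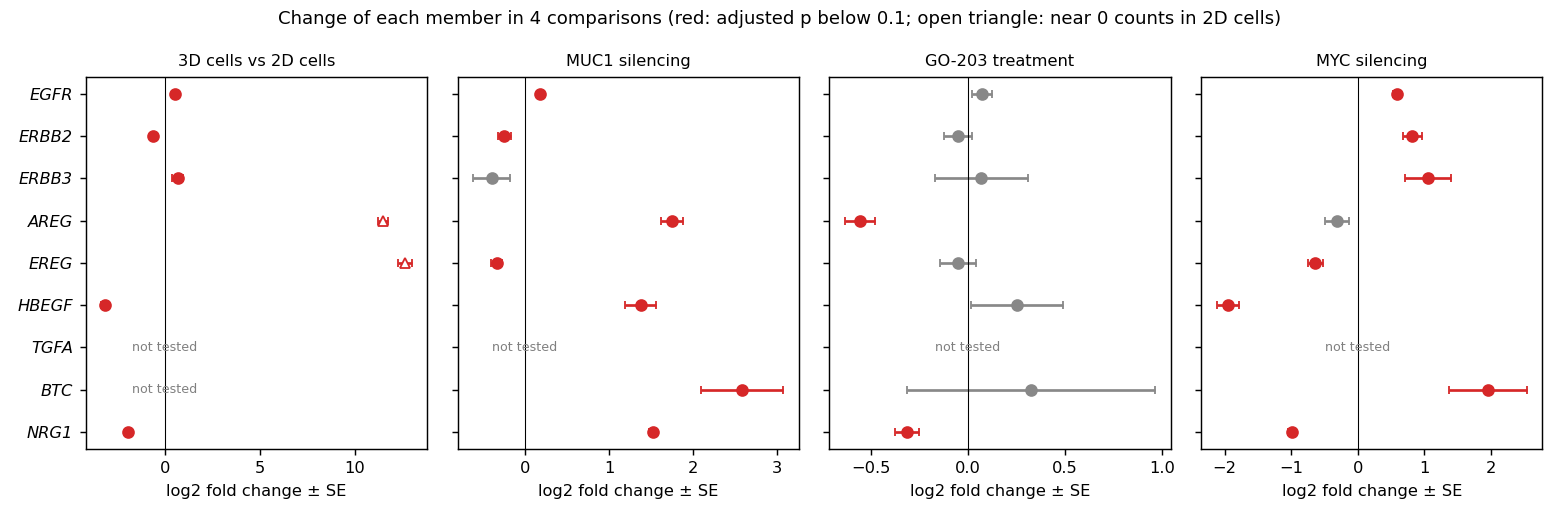
Log2 fold change (x axis, with bars of 1 SE) of each member in the 4 comparisons, each panel on its own scale, with red points at an adjusted p below 0.1. HBEGF and NRG1 lie below 0 in 3D cells and on MYC silencing and above 0 on MUC1 silencing; the open triangles for AREG and EREG are fitted values against near 0 counts and have no defined size.

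The second comparison asked which members change when MUC1 is silenced in mammospheres. The ligand genes BTC, AREG, NRG1 and HBEGF rose, EGFR rose slightly, and EREG and ERBB2 fell slightly. Of 8 members tested, 7 passed the test (62.2% of 19220 genes), 5 rising (30.7% of genes) and 2 falling (31.6%), and 3 exceeded a log2 fold change of 1.5 (8.82%). BTC, with 2 to 8 counts per vehicle library, was tested only because of its DOX counts, so the counts of calls that include it are a description. BTC rose by 2.59 (SE 0.49, adjusted p = 1.2e-04), AREG by 1.75 (SE 0.13, adjusted p = 3.7e-10), NRG1 by 1.52 (SE 0.04, adjusted p = 1.6e-16) and HBEGF by 1.38 (SE 0.19, adjusted p = 2.3e-06). Each was higher in 3 of 3 DOX cultures than in any vehicle culture. EGFR rose by 0.18 (SE 0.04, adjusted p = 0.0017). EREG fell by 0.34 (SE 0.06, adjusted p = 9.8e-05) and ERBB2 fell by 0.25 (SE 0.08, adjusted p = 0.0091), while the overlapping genes PGAP3 (0.99, SE 0.22) and MIEN1 (0.67, SE 0.11) rose. ERBB3 had a log2 fold change of -0.40 (SE 0.22, adjusted p = 0.13), and it passed without the third vehicle culture (-0.54, adjusted p = 0.063). Scaling by library size alone moved the median of all genes from 0.02 to 0.19 and the share of higher genes among those called from 49.3% to 64.4%. The ERBB2 call was then lost (log2 fold change -0.08, adjusted p = 0.38), and no member changed direction. The summed level of the 7 epithelial markers was 20.6 to 25.3 CPM with vehicle and 81.7 to 91.7 CPM with DOX, with KRT7 rising by 1.92 (SE 0.07). KRT8, KRT18 and CDH1 were tested only because of their DOX counts, and CLDN4 did not pass. The 5 mesenchymal markers summed to 11653 to 12730 CPM with vehicle and 8513 to 9155 CPM with DOX, but split, with CDH2 (2.67, SE 0.06) and VIM (0.18, SE 0.04) rising and ZEB1 (-1.41, SE 0.04), SPARC (-0.90, SE 0.04) and FN1 (-0.51, SE 0.04) falling, and the part of these shifts in the member values was not tested.

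The third comparison asked what the MUC1-C inhibitor does to the same genes in 3D cells. AREG and NRG1 fell modestly with GO-203, and the other members did not pass the test. This was 2 of 8 members tested (24.1% of 18488 genes), with 0 rising (11.1% of genes) and 2 falling (12.9%), and 0 exceeded a log2 fold change of 1.5 (0.757%). AREG fell by 0.55 (SE 0.08, adjusted p = 2.3e-05) and NRG1 fell by 0.31 (SE 0.06, adjusted p = 0.0011), each lower in 3 of 3 treated cultures than in any untreated culture. EGFR had a log2 fold change of 0.07 (SE 0.05), ERBB2 of -0.05 (SE 0.07) and EREG of -0.05 (SE 0.09), so changes of the size of the AREG change lay several SE away from these values. HBEGF (0.25, SE 0.24), ERBB3 (0.07, SE 0.24) and BTC (0.32, SE 0.64) had lower counts and larger SE. Of the 6 members that did not pass, 0 had an unadjusted p under 0.05, and DESeq2 also called 2 members. The epithelial markers summed to 51.6 to 59.1 CPM in 3D cells and 64.9 to 75.1 CPM with GO-203, with KRT7 rising by 0.39 (SE 0.07), and of the mesenchymal markers SPARC rose by 0.69 (SE 0.06) and the other 4 did not pass; the part of these shifts was not tested. The 3D libraries that served as controls here are also those of the first comparison.

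The fourth comparison silenced MYC, which encodes the transcription factor. The ligand genes HBEGF, NRG1 and EREG fell, and BTC and all 3 receptor genes rose. Of 8 members tested, 7 passed (58.5% of 19951 genes), 4 rising (30.3% of genes) and 3 falling (28.1%), and 2 exceeded a log2 fold change of 1.5 (10.5%). BTC was again tested only because of its DOX counts, and the counts that include it are a description. HBEGF fell by 1.95 (SE 0.17, adjusted p = 5.7e-06), NRG1 by 0.99 (SE 0.06, adjusted p = 5.8e-07) and EREG by 0.64 (SE 0.12, adjusted p = 0.0010). BTC rose by 1.96 (SE 0.59, adjusted p = 0.017), ERBB3 by 1.06 (SE 0.34, adjusted p = 0.024), ERBB2 by 0.82 (SE 0.15, adjusted p = 8.0e-04) and EGFR by 0.59 (SE 0.06, adjusted p = 1.2e-05). The first MYC-silenced culture stood apart from the other cultures of its group, since the chi-square of their counts, divided by its degrees of freedom, was 45.6 and 31.5, where the other pairs of cultures within a group had 4.13 to 18.5. It was the lowest of its group for EGFR, ERBB2 and ERBB3, and without it these rose by 0.62, 0.97 and 1.30 (adjusted p = 5.4e-07, 3.4e-06 and 0.0035). PGAP3 and MIEN1, opposite ERBB2, rose by 1.28 (SE 0.18) and 0.26 (SE 0.11), and their part in the ERBB2 value was not tested. AREG had a log2 fold change of -0.31 (SE 0.18, adjusted p = 0.19); it passed without the third vehicle culture (-0.48, adjusted p = 0.047) and in the fit to all 21 libraries (-0.29, adjusted p = 0.075). The epithelial markers summed to 7.14 to 9.74 CPM with vehicle and 29.5 to 39.6 CPM with DOX, and 2 of the 2 tested rose. The 5 mesenchymal markers summed to 8116 to 8186 CPM with vehicle and 14023 to 16392 CPM with DOX, but split. FN1 (1.25, SE 0.07), SPARC (0.82, SE 0.06), CDH2 (0.22, SE 0.08) and ZEB1 (0.16, SE 0.06) rose, and VIM fell (-0.18, SE 0.06). The part of these marker shifts in the member values was not tested.

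Silencing MUC1 and silencing MYC moved HBEGF and NRG1 in opposite directions. The difference between the DOX effects in the tet lines was tested over 12 libraries, and it passed for 7 of 8 members (52.9% of 21585 genes). Both ligand genes rose on MUC1 silencing and fell on MYC silencing, and the effects on HBEGF and NRG1 differed by 3.31 (SE 0.24, adjusted p = 3.1e-09) and 2.50 (SE 0.07, adjusted p = 2.9e-14). The AREG effects differed by 2.05 (SE 0.22, adjusted p = 5.2e-07). For the receptors the effect of MUC1 silencing was the lower, by -1.47 for ERBB3 (SE 0.39), -1.09 for ERBB2 (SE 0.18) and -0.42 for EGFR (SE 0.07). EREG fell in both lines, and its difference of 0.29 (SE 0.13, adjusted p = 0.091) lost the call in 9 of 12 fits that left out a library (values from 0.19 to 0.40). BTC rose in both, with a difference of 0.63 (SE 0.80, adjusted p = 0.56) too uncertain to order them. The lines differ in passage as well as target, and these cannot be told apart.

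GO-203 and MUC1 silencing, both directed at MUC1, also differed in their effect on the ligands. The difference passed for 5 of 8 members (44.9% of 20829 genes). It was -2.31 for AREG (SE 0.13, adjusted p = 1.9e-13) and -1.83 for NRG1 (SE 0.08, adjusted p = 1.1e-15), which fell with GO-203 and rose with the shRNA. It was -1.13 for HBEGF (SE 0.30, adjusted p = 0.0033), -2.27 for BTC (SE 0.86, adjusted p = 0.039) and 0.28 for EREG (SE 0.11, adjusted p = 0.045). Without the first 3D culture 3 members passed, BTC (-1.42, adjusted p = 0.25) and EREG (0.23, adjusted p = 0.13) no longer among them. The EREG call was also lost without the third GO-203 culture (0.23, adjusted p = 0.15) or the second vehicle-treated tet-MUC1shRNA culture (0.21, adjusted p = 0.16). The tests did not pass for EGFR (-0.11, SE 0.07, adjusted p = 0.23), ERBB2 (0.20, SE 0.11, adjusted p = 0.16) and ERBB3 (0.47, SE 0.31, adjusted p = 0.26). EGFR passed with library size alone (-0.27, adjusted p = 0.0015), with at least 10 counts in every library (-0.16, adjusted p = 0.066) and without the first vehicle-treated tet-MUC1shRNA culture (-0.16, adjusted p = 0.064). ERBB2 passed without the third GO-203 culture (0.25, adjusted p = 0.085), the second vehicle-treated tet-MUC1shRNA culture (0.26, adjusted p = 0.081) or the third DOX-treated one (0.26, adjusted p = 0.071). The EREG difference was 0.13 with library size alone (adjusted p = 0.40) and 0.28 in the fit to all 21 libraries (adjusted p = 0.14). The agents were applied to different lines, and agent and line cannot be told apart.

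Other genes of the family and pathway were followed as lists. Of 6 further family members (ERBB4, EGF, EPGN, NRG2, NRG3 and NRG4), 0 of 1 tested was called by edgeR in 3D cells against 2D cells, 2 of 3 on MUC1 silencing, 0 of 1 with GO-203 and 0 of 2 on MYC silencing, where 63.7%, 62.2%, 24.1% and 58.5% of all genes were. In the comparisons with 0 calls, 0 had an unadjusted p under 0.05 and DESeq2 called 0. In 3D cells against 2D cells 1 or 2 were called when any 1 library was left out, 2 with a filter at 1 count and 1 in the fit to all 21 libraries. NRG2, which the filter had removed there, had counts of 2, 0 and 0 in 2D cells and 12, 19 and 12 in 3D cells. Epigen (EPGN), an EGFR ligand of the chromosome 4 cluster, rose by 1.79 on MUC1 silencing (SE 0.50, adjusted p = 0.0046), from counts of 2, 8 and 8 to 32, 29 and 19. Neuregulin 3 (NRG3), a ligand of ERBB4, fell by 4.16 (SE 0.50, adjusted p = 4.1e-07), from 57, 56 and 81 counts to 2, 12 and 0. Both genes were tested only because of the group in which they were higher, and with at least 10 counts in every library 0 of the list were called on MUC1 silencing. Of the tested genes of the list, NRG4 had log2 fold changes of -1.18 in 3D cells (SE 0.69), 0.40 on MUC1 silencing (SE 0.46) and 0.62 with GO-203 (SE 0.70). On MYC silencing NRG2 had 0.52 (SE 0.70) and EPGN -0.72 (SE 0.84).

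Genes that ERK signaling is known to induce moved most in the 2D to 3D comparison. Of 14 listed, 13 were tested there, and 13 rose and 0 fell, with a median log2 fold change of 3.09 against -0.01 over all genes, of which 32.0% rose and 31.7% fell. SPRY4, a feedback inhibitor of receptor signaling, rose by 5.07 (SE 0.08) and DUSP5, an ERK phosphatase, by 4.91 (SE 0.08). With GO-203, 1 of 13 rose and 9 fell (median -0.50, all genes 0.02), where 11.1% and 12.9% of all genes did. The ERK phosphatases DUSP4 (-1.33, SE 0.06) and DUSP5 (-0.83, SE 0.06) fell most, and EGR1, an immediate early transcription factor, rose by 0.75 (SE 0.06). On MUC1 silencing 4 of 14 rose and 6 fell (median -0.12, all genes 0.02), beside 30.7% and 31.6% of all genes, with DUSP6 at 1.53 (SE 0.05) and SPRY2 at -1.04 (SE 0.05). On MYC silencing 4 of 13 rose and 5 fell (median -0.11, all genes 0.01), beside 30.3% and 28.1% of all genes, with SPRY2 at 1.27 (SE 0.08) and DUSP5 at -1.66 (SE 0.09). SPRY2 thus fell in one silenced line and rose in the other.

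**Figure D4:**
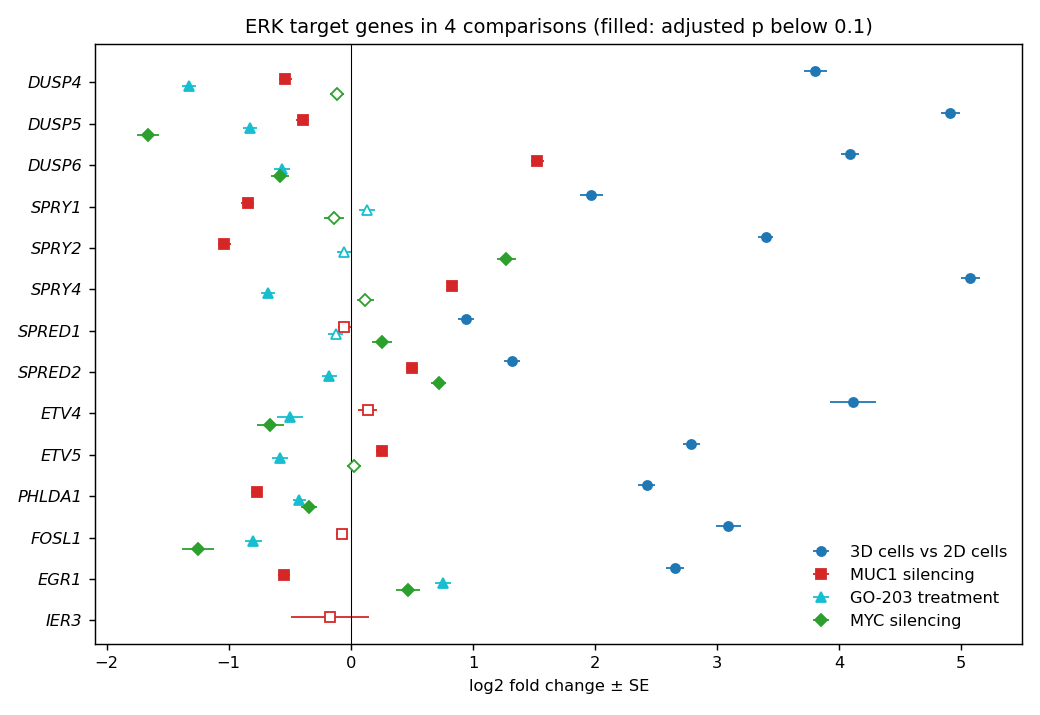
Log2 fold change (x axis, with bars of 1 SE) of the 14 listed ERK target genes in the 4 comparisons, with filled markers at an adjusted p below 0.1. All 13 genes tested between 3D and 2D cells lie at or above 0.94, while the other comparisons spread on both sides of 0.

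The enzymes that release the ligands, the adaptors and the restraining genes moved in both directions. Over all genes tested, 32.0% rose and 31.7% fell in 3D cells, 30.7% and 31.6% on MUC1 silencing, 11.1% and 12.9% with GO-203, and 30.3% and 28.1% on MYC silencing. Of 12 ligand release genes, 5 rose and 6 fell in 3D cells, 5 rose and 6 fell on MUC1 silencing, 3 rose and 1 fell with GO-203, and 7 rose and 2 fell on MYC silencing. ADAM19, a protease that can cleave neuregulin precursors, rose by 1.77 in 3D cells (SE 0.09) and by 2.14 on MUC1 silencing (SE 0.05), and had log2 fold changes of -1.46 with GO-203 (SE 0.08) and -1.60 on MYC silencing (SE 0.06). On MUC1 silencing, with GO-203 and on MYC silencing these signs were those of NRG1, and in 3D cells they were opposite. Of 18 receptor adaptors, 6 of 16 tested rose and 7 fell in 3D cells, 7 and 8 of 17 on MUC1 silencing, 2 and 2 of 17 with GO-203, and 8 and 3 of 17 on MYC silencing. The 4 adaptor calls with GO-203 became 2 without the first 3D culture or the first GO-203 culture. The adaptor SHC1 rose by 1.94 in 3D cells (SE 0.06) and by 0.64 on MYC silencing (SE 0.07). It fell by 0.67 on MUC1 silencing (SE 0.04) and by 0.13 with GO-203 (SE 0.05). GRB7, an adaptor of ERBB2 whose gene lies beside it, rose by 3.08 on MUC1 silencing (SE 0.27). The filter on low counts removed GRB7 from the comparisons of 3D with 2D cells and of GO-203, and it did not pass on MYC silencing (0.71, SE 0.82). Of 15 genes that restrain the receptors, 5 rose and 8 fell in 3D cells, 5 and 7 on MUC1 silencing, 5 and 3 with GO-203, and 7 and 3 on MYC silencing. Leaving out the second or the third vehicle-treated tet-MYCshRNA culture lowered the 10 calls on MYC silencing to 6. ERRFI1, a feedback inhibitor of the EGFR kinase, rose by 2.75 in 3D cells (SE 0.05). It fell by 1.54 on MUC1 silencing (SE 0.06), 0.28 with GO-203 (SE 0.06) and 0.49 on MYC silencing (SE 0.06). The phosphatase gene PTPRJ took the opposite course, with log2 fold changes of -3.98 in 3D cells (SE 0.09) and 1.46 on MUC1 silencing (SE 0.10). Its values were 0.64 with GO-203 (SE 0.11) and 0.40 on MYC silencing (SE 0.14).

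Genes near the chromosome 4 ligands were compared by position. Of 10 annotated protein-coding genes within 500 kb of EREG, AREG or BTC, 6 were tested on MUC1 silencing and 6 rose, with a median log2 fold change of 0.54 against 0.02 over all genes; EPGN is 1 of them and was tested only because of its DOX counts, so count and median are a description. On MYC silencing 0 of 6 rose and 4 fell (median -1.09, all genes 0.01). In 3D cells 4 of 6 rose and 2 fell, and with GO-203 1 of 5 rose and 2 fell. Over all genes tested, 32.0% rose and 31.7% fell in 3D cells, 30.7% and 31.6% on MUC1 silencing, 11.1% and 12.9% with GO-203, and 30.3% and 28.1% on MYC silencing. Chemokine genes of this region led the falls on MYC silencing, CXCL5 with a log2 fold change of -3.48 (SE 0.14) and CXCL3 with -1.56 (SE 0.20). CXCL1 also fell (-1.47, SE 0.06), and CXCL2 did not pass (-0.16, SE 0.13). BTC rose in the same comparison, and on MUC1 silencing EREG fell while these neighbours rose.

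For the 7 members with a mean of at least 1 CPM, the genes whose levels followed each most closely were ranked by Pearson's r of log2(CPM + 1) among 13588 genes over the 21 libraries. The 21 points come from 7 groups and share group, line and medium, so r is a description. Spearman's rho was lower than r in all 21 pairs, from 0.729 to 0.958. Ranked by rho instead, 1 of the 21 genes, ADAMTS6 for HBEGF, stayed among the 3 closest, so the genes named depend on the measure. By r they were XPC (0.945), PPP1R21 (0.920) and TCF19 (0.913) for EGFR, and they included ARHGAP1 (0.953) and B3GNT9 (0.9503) for ERBB2. For ERBB3 they were ZBTB34 (0.868), LDAF1 (0.862) and PRSS36 (0.860). For AREG they were PHLPP1 (0.951), KCNQ3 (0.945) and CMBL (0.939), and for EREG FAM234B (0.989), FHIT (0.989) and SLC6A15 (0.987). For HBEGF they were ADAMTS6 (0.973), EMB (0.964) and PLCE1 (0.963), and for NRG1 DOCK10 (0.990), GALNT7 (0.981) and ATP1B1 (0.969). No member was among the 3 genes most like another member.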

How the data were processed

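RNA-seq was performed on 21 cultures of BT-549 cells with stranded, poly(A)-selected libraries. Reads were aligned by the authors with STAR (2.7.3a in the submitters' processing notes, while the study's methods name another version) to GRCh38, and the deposited values are featureCounts read counts per gene, not normalized. The annotation release and strand setting were not given in the sources used here. Empty cells, which fill whole blocks of libraries and include TGFA in 2D and 3D cells, were read as 0. Library totals were 38026597 to 99751717 counts. Intervals and floors cover counting error only.

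For every comparison the 6 libraries concerned were fitted with edgeR 4.0.16 under R 4.3.3 (filterByExpr, TMM factors, quasi-likelihood test, Benjamini-Hochberg adjustment over all genes tested), with a threshold of 0.1 on the adjusted p. Differences between effects were tested as interactions over 12 libraries. The SE of a log2 fold change was its size divided by the square root of F. CPM used TMM factors over all 21 libraries, and RPKM used the union of GENCODE 44 exons. The steps were tested on simulated data with 200 changed genes. The members and lists were chosen with earlier results of these data known. All members are named; from each list only genes among the 2 largest rises and 2 largest falls called in a comparison are named, except that their values in other comparisons may follow, that PGAP3 and MIEN1 are named for their overlap with ERBB2, that NRG2 is a listed family member, that cell type markers are named after their values were seen, and that GRB7 is also a neighbour of ERBB2. Genes of like pattern were the 3 highest by r among those with a mean of at least 1 CPM. A gene of like pattern to ERBB2 is not reported here. Alternatives were DESeq2 1.42.0, RLE factors, library size alone, a filter at 1 count or of 10 counts per library, 1 fit to all 21 libraries, the replicate block, a threshold of 0.05, vehicle-treated mammospheres of either tet line in place of 3D cells, Spearman's rho for likeness, and leaving out each library. Promoter windows are from RefSeq. Tables were handled with pandas 2.3.3 and plots drawn with matplotlib 3.10.9 in Python 3.11.15.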

Additional observations from a re-analysis of the deposited data

Results flagged for a closer look

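The effects of silencing MUC1 and of silencing MYC differed, by the interaction test of edgeR, for 7 of 8 members tested, against 52.9% of 21585 genes. The difference in log2 fold change, MUC1 minus MYC, was 3.31 for HBEGF, 2.50 for NRG1, 2.05 for AREG and 0.29 for EREG, and it was -0.42 for EGFR, -1.09 for ERBB2 and -1.47 for ERBB3. HBEGF and NRG1 had opposite signs in the lines, and each was past the threshold in both. The EREG call was lost in 9 of 12 fits that left out a library.

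The effects of GO-203 and of MUC1 silencing differed by the same test for 5 of 8 members tested, against 44.9% of 20829 genes. The difference, GO-203 minus MUC1 silencing, was -2.31 for AREG, -1.83 for NRG1, -1.13 for HBEGF, -2.27 for BTC and 0.28 for EREG. With 3 cultures per group, single values were not searched for deviating libraries by a gap test, which needs at least 4 samples.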

How the results depend on the processing

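The counts of members called stayed within 1.5 times the reported value under the alternatives, except that 3 to 6 members, against 5, differed between GO-203 and MUC1 silencing when a library was left out. With the vehicle-treated tet-MUC1shRNA line in place of 3D cells EGFR turned to -0.35, and with the tet-MYCshRNA line ERBB3 turned to -0.71; the cause was not tested. With GO-203, values close to 0 changed sign when a library was left out, ranging from -0.14 to 1.15 for BTC, -0.0843 to 9.04e-05 for ERBB2, -4.3e-04 to 0.16 for ERBB3 and -0.118 to 0.0242 for EREG. The replicate numbers did not pair the cultures, since deviations of same-numbered libraries correlated by -0.18 to 0.08; under the replicate block the members called were 7, 7, 2 and 7 in the 4 comparisons, and 6 and 5 in the interactions, EREG (0.30, adjusted p = 0.14) losing its call between MUC1 and MYC silencing. Scaling by library size alone moved the median of all genes to 0.25 and the share of higher calls from 49.1% to 61.2% in that interaction, and to -0.15 and from 53.6% to 38.4% in the other. Of the fitted values of single members, 351 from leave-out fits and 369 from other alternatives kept their direction and side of the threshold, 16 and 8 lost the call, 6 and 3 gained it, and 5 and 2 changed sign. Depth limits BTC and TGFA throughout, AREG and EREG in 2D cells, and to a lesser degree ERBB3 and HBEGF.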

Other observations

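Genes around ERBB2 moved in both directions. Of 28 protein-coding genes annotated within 500 kb, 9 of 18 tested rose and 3 fell in 3D cells against 2D cells, 6 of 19 rose and 10 fell on MUC1 silencing, 1 of 18 rose and 5 fell with GO-203, and 7 of 19 rose and 10 fell on MYC silencing. Over all genes tested, 32.0% rose and 31.7% fell in 3D cells, 30.7% and 31.6% on MUC1 silencing, 11.1% and 12.9% with GO-203, and 30.3% and 28.1% on MYC silencing. CSF3, the gene of granulocyte colony-stimulating factor, was near 0 in 2D cells and was tested there only because of its 3D counts. It rose by 0.13 on MUC1 silencing (SE 0.05), and fell by 1.12 with GO-203 (log2, SE 0.10) and by 1.04 on MYC silencing (SE 0.11). THRA, a thyroid hormone receptor gene, rose by 1.62 in 3D cells (SE 0.09) and by 0.81 on MYC silencing (SE 0.12). It fell by 1.66 on MUC1 silencing (SE 0.07) and did not pass with GO-203 (0.08, SE 0.07).

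Among the marker lists, the endothelial gene PECAM1 was at 1 CPM or more in the mammosphere groups and below it in 2D cells, while CDH5 and VWF were below 1 CPM in all 7 groups. Of the leukocyte markers, PTPRC reached 1 CPM in 2D cells, and CD3E and CD14 did not in any group. The summed level of the 5 mesenchymal markers ranged from 6244 CPM in a 2D culture to 16392 CPM in a MYC-silenced culture.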
